A study of Homo sapiens with 12 samples.

Results

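The 9 genes described here, KMT2C, KMT2D, EP300, CREBBP, SETD2, FAT1, FAT2, AJUBA and FBXW7, are chromatin regulators, FAT-Hippo genes and a ubiquitin ligase subunit known as mutated genes of esophageal squamous cell carcinoma. They were taken by name from a table of 38516 genes, and all 9 were among the 17823 genes expressed highly enough to be tested. The study measured total RNA by RNA sequencing in KYSE150 and KYSE510, established cell lines from human esophageal squamous carcinomas, grown in RPMI-1640 medium with fetal bovine serum. Each line had a control group and a group in which HCP5, a long non-coding RNA gene of the HLA region, was silenced, with 3 libraries in each of the 4 groups. The labels name no clone, time after silencing or sequence of the silencing reagent, and no mutation of the 9 genes in either line was analysed here.

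KMT2C and KMT2D are methyltransferases that place the monomethyl mark on lysine 4 of histone H3 at enhancers, and EP300 and CREBBP are paralogous acetyltransferases that acetylate histones at the same elements. SETD2 trimethylates lysine 36 of histone H3 along the bodies of transcribed genes. FAT1 and FAT2 are giant cadherins of the cell surface that act upstream of the Hippo pathway, a kinase cascade that restrains the transcriptional coactivators YAP1 and WWTR1 (TAZ). AJUBA is a LIM-domain adaptor that binds the LATS kinases of that cascade and also sits at cell junctions, and FBXW7 is the subunit of an SCF ubiquitin ligase that recognises phosphorylated substrates such as MYC and cyclin E.

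Depth, as reads recovered from the deposited values, was 20035025 to 22700935 per library in the KYSE150 controls and 26281327 to 28202422 in the silenced KYSE150 libraries, so every silenced library of that line was deeper than every control. The KYSE510 libraries held 21116344 to 27513023 reads. Between 595 and 14656 reads lay behind each value of a member. HCP5 itself had an RPKM (reads per kilobase of exon, scaled to the reads of the library) of 0.745 to 0.786 in KYSE150 controls and 0.315 to 0.579 in silenced cells, and of 0.914 to 1.85 against 0.505 to 0.951 in KYSE510. It was lower in 3 of 3 same-numbered pairs of each line, but did not pass the test in KYSE150 (limma adjusted p = 0.267) or in KYSE510 (limma adjusted p = 0.646). Nor did HCP5 pass in the fit with the replicate number as a block, described below (limma adjusted p = 0.0556 in KYSE150 and 0.134 in KYSE510). All 8 epithelial markers checked (KRT5, KRT14, KRT6A, TP63, SFN, CDH1, EPCAM and DSG3) were expressed. The 6 fibroblast markers summed to at most 0.901 RPKM and the 4 endothelial markers to at most 2.09, of which CDH5 alone reached 2.03. The leukocyte marker PTPRC reached at most 0.00566. The 6 leukocyte markers summed to 29.7 to 47.1, of which CD68 made up nearly all.

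The epithelial marker sum was 1056 to 1640 RPKM in KYSE150 controls and 1301 to 2681 in silenced cells, and 1144 to 1350 against 1481 to 1658 in KYSE510. These ranges overlapped in KYSE150 and did not overlap in KYSE510, and the sum was not tested. KRT5 and SFN made up most of the sum in every group, and the markers are described singly below. The part of the sum in the values below was not tested. In bulk RNA, fewer cells of a type and less RNA per cell cannot be told apart. The labels do not say that replicates were separate cultures, so p-values measure only the spread between these libraries.

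FAT1 and FAT2 had the largest differences between silenced and control cells among the 9 genes, in both lines. The promoters of both genes are shown first because the cadherins, similar in level in KYSE150, differed in level in KYSE510. Each sequence is the 250 bases before the RefSeq transcription start (build GRCh38.p14), read 5′ to 3′ on the minus strand, with every CG dinucleotide in capitals. FAT1 lies at chr4:186587783-186726722 and its window at chr4:186726697-186726946. FAT2 lies at chr5:151504093-151568944 in the deposited table and its RefSeq window at chr5:151591332-151591581, 22387 bases upstream of the end of the deposited gene model.
FAT1 promoter: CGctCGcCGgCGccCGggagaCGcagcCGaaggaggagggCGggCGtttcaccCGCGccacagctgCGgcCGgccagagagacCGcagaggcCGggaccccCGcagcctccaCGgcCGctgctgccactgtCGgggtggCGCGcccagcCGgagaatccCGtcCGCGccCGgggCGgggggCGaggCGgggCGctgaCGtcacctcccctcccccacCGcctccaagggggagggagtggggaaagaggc
FAT2 promoter: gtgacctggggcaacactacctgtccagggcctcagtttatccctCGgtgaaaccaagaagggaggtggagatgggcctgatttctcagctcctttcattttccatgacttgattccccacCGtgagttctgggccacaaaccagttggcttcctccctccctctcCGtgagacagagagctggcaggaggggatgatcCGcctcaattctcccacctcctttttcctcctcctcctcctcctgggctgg
The FAT1 window held 32 CG dinucleotides and 78.0% G+C, whereas the FAT2 window held 4 and 56.8%. The ratio of observed to expected CG was 0.843 for FAT1 and 0.203 for FAT2, against a median of 0.558 over 35116 RefSeq windows of the same length. FAT2 was the only member below that median. The other 8 lay between 0.685 (AJUBA) and 0.958 (EP300).

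FAT1 stood at 13.4, 10.4 and 13.0 RPKM in the KYSE150 controls and at 19.98, 14.2 and 20.7 in the silenced libraries. In KYSE510 it stood at 28.8, 30.7 and 30.9 in controls and at 33.6, 33.6 and 36.4 after silencing. Every silenced library was therefore above every control of its own line, and the lowest silenced KYSE150 library lay closest to the controls.

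The FAT1 means were 12.3 ± 1.62 and 18.3 ± 3.53 RPKM in KYSE150 (SD, n = 3 each), a 1.49-fold difference. On the log2(RPKM + 0.5) scale, used for every log2 value here, this was 0.55 (SE 0.13, 95% interval 0.25 to 0.84), and it did not pass the test of all 17823 genes (limma, Benjamini-Hochberg adjusted p = 0.0966, exact two-sided permutation p = 0.1, the smallest that 3 against 3 libraries allow). With the replicate number as a block, which compares same-numbered libraries, the same difference had an SE of 0.059 and FAT1 passed (limma adjusted p = 0.0130). That pairing was inferred from these same data, and 6.7% of all genes passed in KYSE150 with the block, against 0.499% without it. Leaving out KYSE150 control replicate 3 gave 0.59 (limma adjusted p = 0.0468). Without that library 1287 of all genes passed in KYSE150, against 89 with it. Leaving out silenced replicate 2, the low library, gave 0.71 (limma adjusted p = 0.0477). FAT1 did not pass without control replicate 1 (0.61, limma adjusted p = 0.211) or 2 (0.44, limma adjusted p = 0.315). Nor did it pass on centring each library on its median (0.42, limma adjusted p = 0.173).

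In KYSE510 the FAT1 means were 30.1 ± 1.13 and 34.6 ± 1.61 RPKM (SD, n = 3 each), a 1.15-fold difference of 0.19 on the log2 scale (SE 0.13), which did not pass in either fit (limma adjusted p = 0.921, and 0.251 with the block). Averaged over both lines the FAT1 difference was 0.37 (limma adjusted p = 0.140, and 0.0132 with the block). The lines' differences, KYSE510 minus KYSE150, were -0.35 apart and were not shown to differ (limma adjusted p = 0.432, and 0.117 with the block).

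FAT2, the paralog expressed mainly in squamous epithelium, stood at 10.8, 10.4 and 14.7 RPKM in KYSE150 controls and at 14.1, 14.7 and 20.02 in silenced libraries. In KYSE510 it stood at 9.17, 12.2 and 10.1 in controls and at 11.0, 13.3 and 11.1 after silencing. The groups overlapped in both lines, because control replicate 3 of KYSE150 and control replicate 2 of KYSE510 were high, but each silenced library was above its same-numbered control.

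The FAT2 means in KYSE150 were 11.95 ± 2.35 and 16.3 ± 3.24 RPKM (SD, n = 3 each), a 1.36-fold difference of 0.43 on the log2 scale (SE 0.16). FAT2 did not pass the test there (limma adjusted p = 0.219, exact permutation p = 0.2). With the replicate block, which carries the limits given for FAT1, it passed (SE 0.055, limma adjusted p = 0.0187). In KYSE510 the difference was 0.17 (limma adjusted p = 0.945, and 0.272 with the block), and averaged over lines 0.30 (limma adjusted p = 0.353, and 0.0179 with the block). The difference of -0.26 between the lines was not shown (limma adjusted p = 0.600, and 0.129 with the block).

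FAT1 and FAT2 were the members that were higher in the silenced library of all 6 same-numbered pairs. Of all genes tested, 6.7% were higher in all 6 pairs and 2.77% were lower in all 6. Of the 3 keratins among the epithelial markers, KRT14 was at 23.0 to 81.2 RPKM in KYSE150 controls and 91.2 to 369 in silenced cells, without overlap. KRT5 (416 to 875 against 607 to 1423) and KRT6A (15.3 to 44.7 against 28.9 to 102) overlapped. In KYSE510, KRT14 (4.87 to 6.78 against 14.5 to 19.8) and KRT5 (205 to 263 against 362 to 412) did not overlap. KRT6A (10.2 to 28.1 against 14.1 to 73.5) overlapped there. Of the other markers, TP63 and DSG3 were higher in silenced cells without overlap in both lines, DSG3 only barely in KYSE510. SFN, CDH1 and EPCAM overlapped in both lines. The part of these markers in the FAT values was not tested. The FAT2 value carries a further limit, since 596 bases of its exons (4.10%) overlap CTC-251D13.1 on the opposite strand and the use of strand in counting is not given in the sources used here. FAT1 shared no exon base with another gene and no 50-base window with another gene's transcripts.

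**Figure D1:**
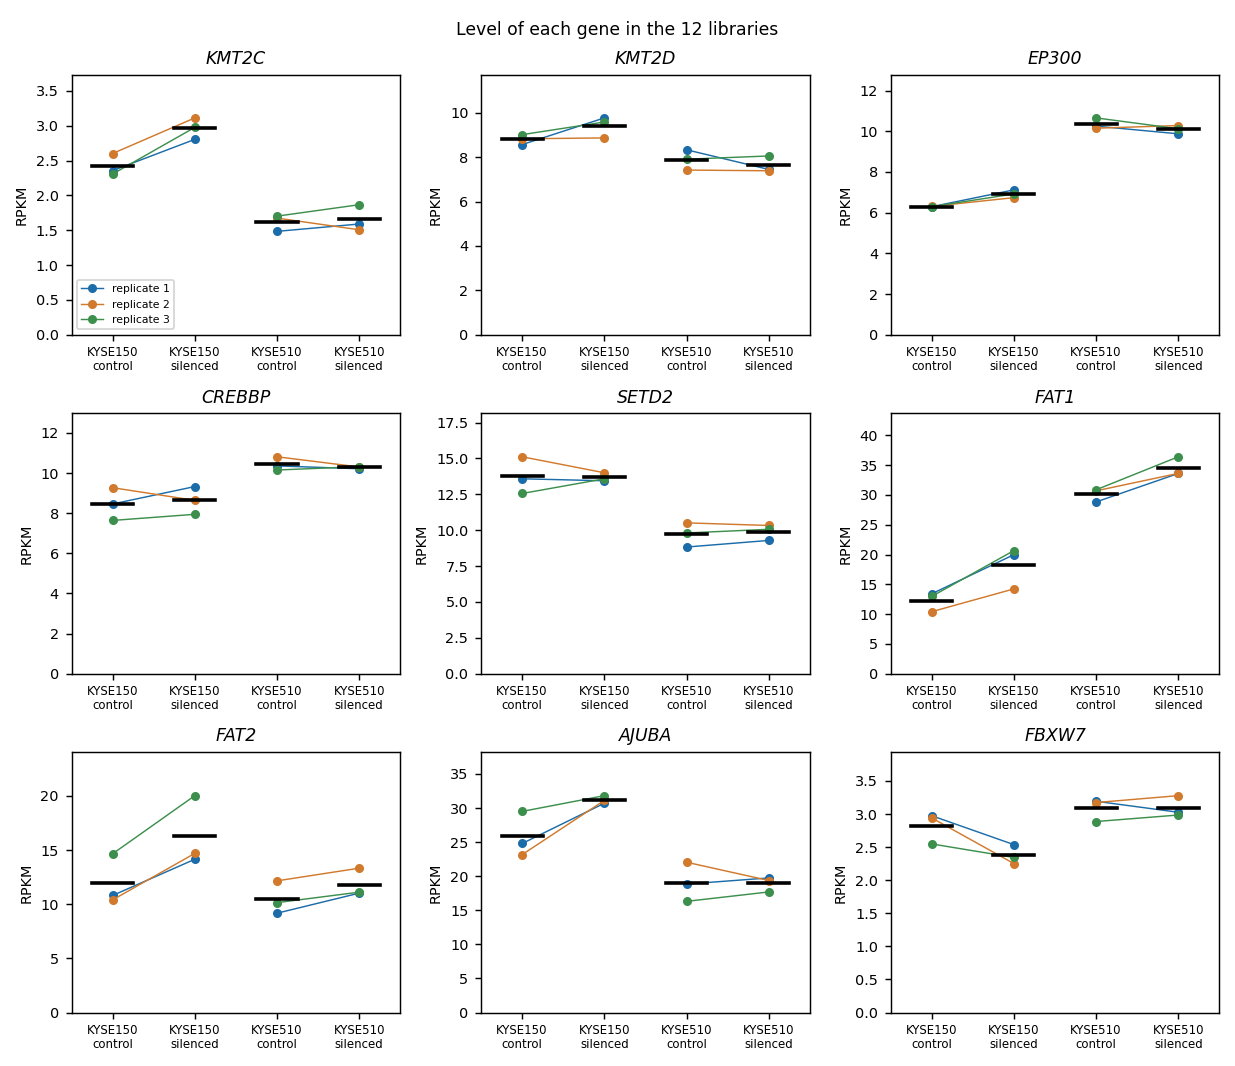
RPKM of the 9 genes in each of the 12 libraries, with 1 panel per gene, the groups on the horizontal axis, points for libraries, black bars for group means (n = 3), and lines joining same-numbered libraries. FAT1 in KYSE510 lies between 28.8 and 36.4, above all KYSE150 libraries, whose highest is 20.7.

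AJUBA, the LIM adaptor, was the most abundant member in KYSE150, at 24.8, 23.2 and 29.5 RPKM in controls and 30.7, 31.1 and 31.8 in silenced cells. In KYSE510 it stood at 18.8, 22.0 and 16.3 in controls and at 19.7, 19.4 and 17.7 after silencing. The KYSE150 groups did not overlap, and the silenced libraries lay within a narrower range than the controls, while in KYSE510 the silenced range lay inside that of the controls. The log2 difference was 0.28 in KYSE150 (SE 0.11, limma adjusted p = 0.244, and 0.0829 with the block). In KYSE510 it was -0.0011, and its sign there was positive when libraries were centred on their median (0.02).

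FBXW7 was the member that was lower in KYSE150 in 3 of 3 pairs. Its controls stood at 2.97, 2.94 and 2.55 RPKM and its silenced libraries at 2.54, 2.25 and 2.34, so that the highest silenced library was just below the lowest control. In KYSE510 the controls stood at 3.19, 3.17 and 2.89 and the silenced libraries at 3.03, 3.28 and 2.99, with overlap. The log2 difference was -0.21 in KYSE150 (SE 0.085, limma adjusted p = 0.247, and 0.106 with the block) and 0.0051 in KYSE510. Each FBXW7 value rested on 595 to 825 reads, the lowest range among the 9 genes.

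KMT2C had the lowest level of the 9 genes in both control groups. It stood at 2.35, 2.60 and 2.31 RPKM in KYSE150 controls and at 2.80, 3.11 and 2.98 in silenced libraries, without overlap. In KYSE510 it stood at 1.48, 1.67 and 1.70 in controls and at 1.59, 1.51 and 1.87 after silencing, with overlap. The log2 difference was 0.25 in KYSE150 (SE 0.092, limma adjusted p = 0.213, and 0.0803 with the block) and 0.02 in KYSE510 (limma adjusted p = 0.998). Of its 50-base windows, 6.77% also occur in transcripts of other genes, most in BAGE2, so reads of these stretches are uncertain.

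KMT2D, the paralog of KMT2C, varied less. Its libraries ran from 8.57 to 9.01 RPKM in KYSE150 controls and from 8.86 to 9.77 after silencing, and from 7.42 to 8.33 against 7.38 to 8.05 in KYSE510. The groups overlapped in both lines. The log2 differences were 0.09 in KYSE150 (limma adjusted p = 0.522), which turned to -0.04 when libraries were centred on their median, and -0.04 in KYSE510 (limma adjusted p = 0.969). KMT2D was 3.65 ± 0.257 times as abundant as KMT2C in KYSE150 controls and 4.90 ± 0.630 times in KYSE510 controls (SD, n = 3 each, per unit of length). This ratio did not overlap between the control lines (exact permutation p = 0.1, the smallest possible).

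The KMT2D promoter is shown because it was the only member window with the motif CACGTG, the E-box that MYC and related factors can bind. The match, in capitals, begins at position -121 from the RefSeq start, in the window chr12:49060795-49061044 on the minus strand (GRCh38.p14). This start lies 1020 bases upstream of the end of the deposited gene model. A single window per gene was searched, although FAT1, CREBBP and AJUBA have 2 RefSeq starts each and FBXW7 has 4.
KMT2D promoter: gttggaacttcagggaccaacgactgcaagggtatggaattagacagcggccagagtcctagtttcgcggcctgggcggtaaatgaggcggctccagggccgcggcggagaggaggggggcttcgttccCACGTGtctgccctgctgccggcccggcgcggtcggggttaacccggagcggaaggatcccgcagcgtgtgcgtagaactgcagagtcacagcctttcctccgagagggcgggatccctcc
This motif occurred in 6.34% of the 35116 windows. The AP-1 motif TGANTCA (6.57% of windows) and the TEAD motif GGAATG (11.9% of windows), both searched on both strands, occurred in 0 of the 9 member windows. The SP motif GGGCGG, also searched on both strands, occurred in 7 of the 9 member windows and in 42.6% of all windows. This motif holds only G and C. G+C was 65.6% (KMT2D) to 92.0% (KMT2C) in every member window but that of FAT2 (56.8%), beside a median of 58.0% over all windows. The part of G+C in these shares was not tested. KMT2C had 15 matches to it, some overlapping each other, and KMT2D had 2, neither of which overlaps its E-box. EP300 and FAT2 had 0. A match describes letters, not binding.

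EP300 stood at 6.29, 6.31 and 6.30 RPKM in KYSE150 controls and at 7.12, 6.74 and 6.92 in silenced libraries. Its KYSE510 libraries stood at 10.2, 10.1 and 10.7 in controls and at 9.87, 10.3 and 10.1 after silencing. The KYSE150 groups did not overlap, but the 3 controls spanned less than counting error alone gives: the exact 95% Poisson interval of the first control was 5.99 to 6.61 (1576 reads). The log2 difference was 0.13 in KYSE150 (limma adjusted p = 0.291, and 0.157 with the block), which turned to -0.0030 on centring each library on its median, and -0.03 in KYSE510.

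CREBBP, the paralog of EP300, ran from 7.64 to 9.27 RPKM in KYSE150 controls and from 7.94 to 9.33 after silencing, and from 10.1 to 10.8 against 10.2 to 10.3 in KYSE510. Groups overlapped in both lines, with log2 differences of 0.03 in KYSE150, which turned to -0.10 on centring, and -0.02 in KYSE510, which turned to 0.0052. The EP300 to CREBBP ratio was 0.750 ± 0.0721 in KYSE150 controls and 0.993 ± 0.0555 in KYSE510 controls (SD, n = 3 each), without overlap (exact permutation p = 0.1, the smallest possible). After silencing it was 0.805 in KYSE150 and 0.982 in KYSE510, and its libraries overlapped the controls of the same line.

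SETD2 ran from 12.6 to 15.1 RPKM in KYSE150 controls and from 13.4 to 14.0 in silenced libraries, and from 8.83 to 10.5 against 9.29 to 10.3 in KYSE510. The silenced range lay inside the control range in both lines. The log2 differences were -0.0040 in KYSE150 and 0.03 in KYSE510.

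Counted over the 9 genes, 0 passed the limma test in KYSE150, where 0.499% of all tested genes passed. In KYSE510 0 passed against 0.0393% of all genes, averaged over lines 0 against 0.539%, and for the difference between the lines 0 against 0%. At an unadjusted p under 0.05 the counts were 5 in KYSE150 (18.1% of all genes), 0 in KYSE510 (6.35%), 2 averaged (11.5%) and 0 for the difference (12.2%). With the replicate block, FAT1 and FAT2 passed in KYSE150, where 6.7% of all genes passed, and averaged over lines, where 2.74% did. No member passed with the block in KYSE510 (0.112% of all genes) or for the difference between lines (0% of all genes).

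In KYSE150 the groups did not overlap for 4 members that were higher after silencing (KMT2C, EP300, FAT1 and AJUBA), against 13.7% of all genes, and for 1 that was lower (FBXW7), against 5.47%. In KYSE510 this held for 1 higher member (FAT1), against 5.22%, and for 0 lower members, against 6.87%. The median log2 difference of the 9 genes was 0.13 in KYSE150 and 0.01 in KYSE510, beside 0.08 and -0.02 over all tested genes. Centring each library on its median moved every KYSE150 difference down by 0.13, and left 4 of the 9 genes above 0 (KMT2C, FAT1, FAT2 and AJUBA) where 7 had been. The members have long exons, 5979 to 20476 bases, and the 4527 tested genes in that length range had a median log2 difference of 0.08 in KYSE150 and -0.01 in KYSE510.

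**Figure D2:**
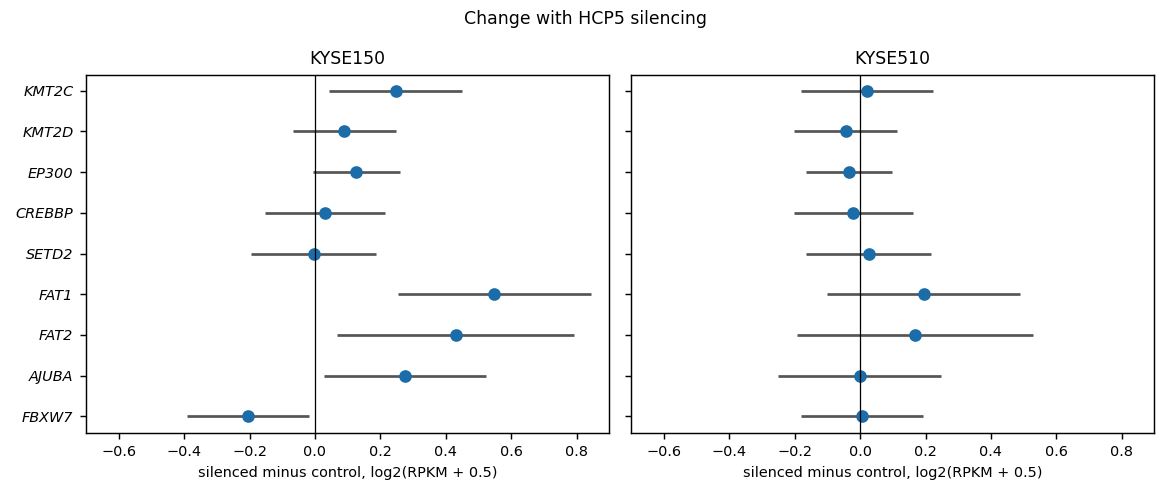
Silenced minus control difference of each gene on the log2(RPKM + 0.5) scale (horizontal axis), with 95% intervals from the limma fit without the block, for KYSE150 (left) and KYSE510 (right). FAT1 at 0.55 and FAT2 at 0.43 lie farthest to the right in KYSE150, and FBXW7 at -0.21 farthest to the left.

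The control cells of the lines also differed in these genes. Of the 9 genes, 6 differed between the control groups, where 62% of all tested genes did: FAT1, EP300 and CREBBP were higher in KYSE510, and KMT2C, SETD2 and AJUBA were lower. FAT1 was 2.46-fold higher in KYSE510, a log2 difference of 1.27 (limma adjusted p = 8.29e-06), the largest of the 9. EP300 was 1.64-fold higher (log2 0.67, limma adjusted p = 2.06e-06) and CREBBP 1.23-fold higher (log2 0.29, limma adjusted p = 0.00949).

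SETD2 was lower in KYSE510 by a log2 difference of -0.48 (limma adjusted p = 0.000540), KMT2C by -0.46 (limma adjusted p = 0.00106) and AJUBA by -0.43 (limma adjusted p = 0.00605). KMT2D (-0.15, limma adjusted p = 0.0890), FAT2 (-0.17, limma adjusted p = 0.379) and FBXW7 (0.11, limma adjusted p = 0.275) did not pass. Non-overlap between the control groups held for 3 members higher in KYSE510, against 28.5% of all genes, and for 4 lower, KMT2D included, against 35.5%. With a majority of all genes differing between the lines, the count of 6 is near the background.

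**Figure D3:**
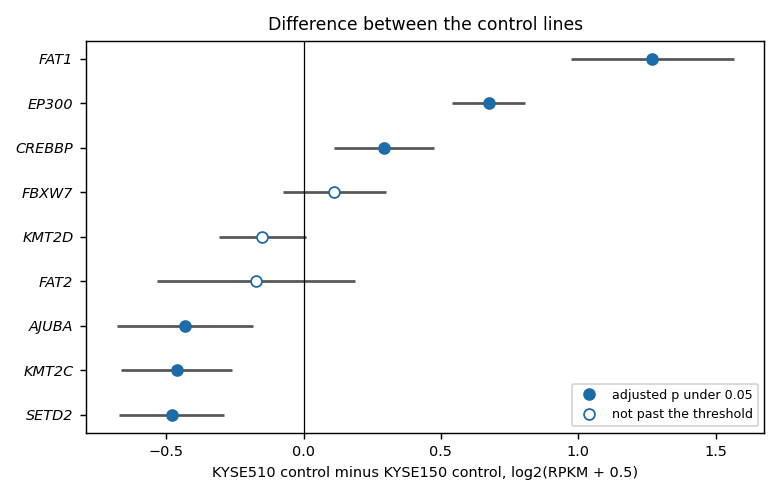
KYSE510 control minus KYSE150 control difference of each gene on the log2(RPKM + 0.5) scale, with 95% intervals, filled points for a limma adjusted p under 0.05 and open points for the others. FAT1 at 1.27 and EP300 at 0.67 lie farthest to the right, and SETD2 at -0.48 farthest to the left.

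The order of levels, compared per unit of length, also differed. In KYSE150 controls AJUBA (25.8 RPKM) stood first, then SETD2 (13.8), FAT1 (12.3), FAT2 (11.95), KMT2D (8.80), CREBBP (8.45), EP300 (6.30), FBXW7 (2.82) and KMT2C (2.42). SETD2, FAT1 and FAT2 overlapped as neighbours, as did KMT2D with CREBBP, and FBXW7 with KMT2C. In KYSE510 controls FAT1 (30.1) stood first and AJUBA (19.1) second, followed by FAT2, CREBBP, EP300 and SETD2, whose means lay between 9.71 and 10.5 with overlapping libraries. KMT2D (7.88), FBXW7 (3.08) and KMT2C (1.62) came last. The FAT1 to FAT2 ratio was 1.04 ± 0.182 in KYSE150 controls and 2.90 ± 0.332 in KYSE510 controls (SD, n = 3 each), and 1.14 and 2.95 after silencing. The ratio thus differed between the lines without overlap (exact permutation p = 0.1, the smallest possible) and overlapped between silenced and control cells within each line.

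After each line's mean was subtracted, FAT2 varied with AJUBA across the 12 libraries (Pearson r = 0.764), FAT1 with FAT2 (r = 0.718) and FAT1 with EP300 (r = 0.714), while KMT2C and FBXW7 varied in opposite directions (r = -0.714). The pairs were named because their r was the largest in size among all pairs of members. Others lay near 0, such as EP300 with SETD2 (r = -0.0072). All these values are descriptions over libraries that share their group, depth and scaling. Among 14026 candidate genes, those most like FAT1 were MFSD2A (r = 0.9499) and ATF7 (r = 0.946), and those most like FAT2 were HSD3B7 (r = 0.971) and AIM1 (r = 0.968). AJUBA was most like OPA3 (r = 0.912), FBXW7 most like INO80B (r = 0.965), KMT2C most like PSD3 (r = 0.938), KMT2D most like NAT9 (r = 0.852), EP300 most like BMP2K (r = 0.921), CREBBP most like CCT7 (r = 0.909) and SETD2 most like STRN (r = 0.941).

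The partner genes of the members were read from 8 lists of 102 genes in all, of which 98 were tested. In KYSE150, 2 rose and 0 fell (2.04% of the partners, against 0.499% of all genes), in KYSE510 0 passed (0.0393% of all genes), and averaged over lines the same 2 rose (against 0.539%). With the replicate block the counts were 9 higher and 0 lower in KYSE150 (9.18%, against 6.7% of all genes), 0 in KYSE510 (0.112% of all genes), and 5 higher and 1 lower averaged over lines (6.12%, against 2.74%). Nothing particular to the partners is read from these shares. The list medians in KYSE150 were 0.05 for 14 other methyltransferases and subunits of COMPASS and related complexes, and -0.0020 for 14 other acetyltransferases, cofactors and bromodomain readers. They were 0.06 for 11 other methyltransferases and demethylases, most of them known for lysine 36, and 0.10 for 18 other chromatin regulators. The remaining medians were 0.14 for 17 FAT-Hippo genes, 0.32 for 5 LIM proteins of the AJUBA and zyxin family and 0.19 for 9 SCF ligase and associated genes. For 10 substrates of FBXW7 the median was 0.28, beside 0.08 for all genes. In KYSE510 the medians, in the same order of lists, were -0.05, -0.03, -0.02, 0.02, -0.01, -0.23, -0.07 and -0.0055, beside -0.02 for all genes. No gene of the LIM list passed in KYSE510 or for the difference between the lines, in either fit.

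DPY30, a COMPASS core subunit, averaged 14.3 ± 0.473 RPKM in KYSE150 controls and 21.0 ± 1.85 after silencing (SD, n = 3 each), a log2 rise of 0.53 (limma adjusted p = 0.0217). LATS2, a Hippo kinase that AJUBA binds, averaged 4.50 ± 0.309 and 6.85 ± 0.304 RPKM, a log2 rise of 0.56 (limma adjusted p = 0.0149). Averaged over lines, the rises were 0.42 for DPY30 (limma adjusted p = 0.00858) and 0.36 for LATS2 (limma adjusted p = 0.0186). The KYSE150 calls of both genes were lost when the 6 libraries of that line were fitted alone (limma adjusted p = 0.184 for DPY30 and 0.181 for LATS2). They were also lost without KYSE150 control replicate 1, control replicate 2 or silenced replicates 2 or 3, and that of LATS2 without silenced replicate 1 too (limma adjusted p = 0.0798 to 0.113 for DPY30 and 0.0531 to 0.0953 for LATS2). The averaged call of LATS2 was lost without any of 6 libraries (limma adjusted p = 0.0522 to 0.0738), KYSE150 control replicates 1 and 2, KYSE150 silenced replicates 1 and 2, KYSE510 control replicate 2 and KYSE510 silenced replicate 3. The other genes that passed in KYSE150 with the block were the Hippo scaffold SAV1 (log2 0.40, limma adjusted p = 0.0373), the coactivator WWTR1 (0.65, limma adjusted p = 0.0162) and its partner transcription factor TEAD1 (0.36, limma adjusted p = 0.0393). They also included the LIM protein FBLIM1 (0.33, limma adjusted p = 0.0437), the F-box protein SKP2 (0.38, limma adjusted p = 0.0289) and the FBXW7 substrates MCL1 (0.50, limma adjusted p = 0.0126) and MYC (0.27, limma adjusted p = 0.0439). The MYC difference was -0.01 without KYSE150 control replicate 2. Averaged over lines with the block, WWTR1 (0.47), FBLIM1 (0.26) and MCL1 (0.29) passed as higher beside DPY30 and LATS2. The gene that passed as lower was YAP1, the Hippo coactivator (-0.30, limma adjusted p = 0.0477). YAP1 averaged 19.8 RPKM in KYSE150 controls and 17.1 after silencing, and 35.0 against 26.4 in KYSE510. None of these 8 genes passed in a silencing comparison of the main fit without the block, where SKP2 in KYSE150 was near the threshold (limma adjusted p = 0.0530). Some alternatives without the block did pass, such as SKP2 in KYSE150 with a pseudocount of 1 (limma adjusted p = 0.0495).

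**Figure D4:**
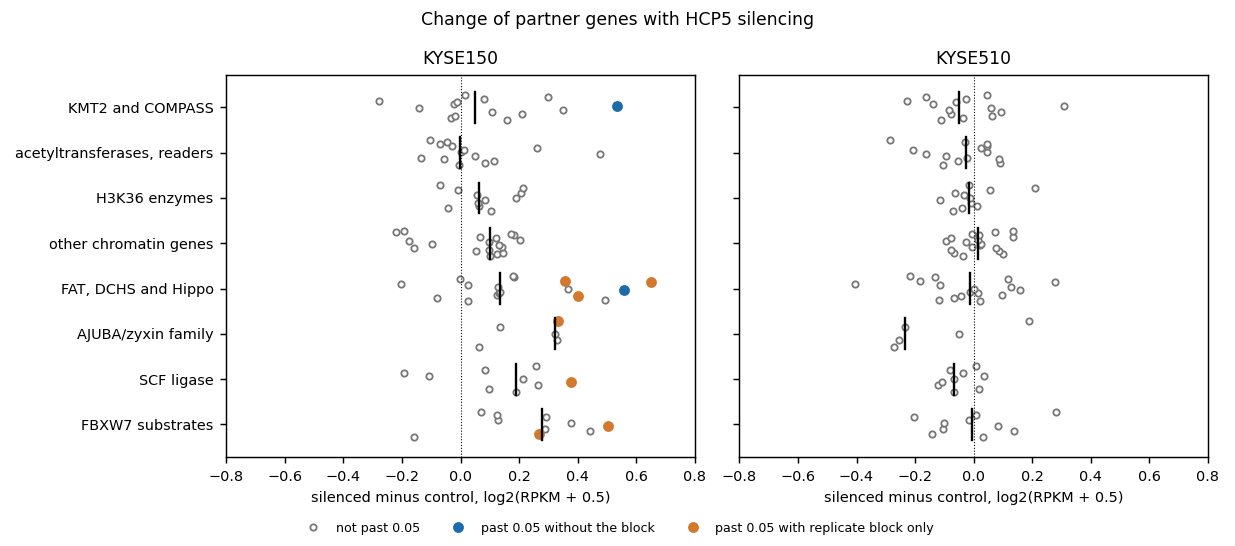
Silenced minus control difference of the partner genes on the log2(RPKM + 0.5) scale (horizontal axis), by list, in KYSE150 (left) and KYSE510 (right), with points for genes (blue past the threshold without the block, orange with the block only), a bar for each list's median and a dotted line at 0. The LIM median, over 5 genes, is 0.32 in KYSE150 and -0.23 in KYSE510, where none of these genes passed.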

How the data were processed

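RNA was sequenced from 12 libraries (KYSE150 and KYSE510, control and HCP5-silenced, 3 each). The deposited table gives RPKM per gene, which the authors scaled to summed exon length (also deposited, in bases, as another column) and to the reads assigned to the genes, per the file headers and the values. The submitters' processing notes name HISAT2, DESeq and GRCh38 without roles or versions. The position columns have the form that featureCounts writes, per the file headers. The counter, its strand setting and the annotation release are not given in the sources used here. RPKM depends on every other gene of a library, so abundant genes move all values. Groups came from the labels, and replicate numbers from the titles.

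RPKM times length was a whole multiple of 1 read in 100% of values (tolerance 0.05 reads), which gave the depths. Between replicates, the chi-square divided by the number of genes was 10.3 to 36.6, so none was a copy of another. Poisson intervals hold counting error alone, because PCR duplicates are not separate molecules.

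Genes that reached an RPKM of 0.5 in 3 or more libraries were fitted with limma 3.58.1 (R 4.3.3) on log2(RPKM + 0.5), with 4 group means, 8 residual degrees of freedom and trended empirical Bayes. Tests were two-sided, Benjamini-Hochberg adjusted over 17823 genes, with a threshold of 0.05. The added 0.5 understates changes of low genes. The replicate block (line by replicate number, 4 residual degrees of freedom) was run beside it. Deviations of same-numbered silenced and control libraries from their group means correlated at 0.147 to 0.415 in 6 of 6 pairs (all above 0.1). Differently numbered ones correlated at -0.385 to 0.184, so the numbers were taken to pair libraries. Because deviations within a group of 3 sum to 0, positive values of same-numbered pairs in part force negative values of the others. The ranges also overlapped, and the pairing rests on these same data. The labels do not say what a number marks. The fits were tested on simulated data.

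The members and gene lists were chosen with earlier results of these data known. All 9 members are named. Of each list, genes past the threshold in a silencing comparison (up to 3) and the largest difference in each direction between control lines are named. Partner genes that passed only with the block are named too, a choice made after their values were seen. The most similar genes were the highest Pearson r among tested genes with a mean RPKM of at least 1. RefSeq promoters matched 9 of 9 members. Alternatives were other pseudocounts, filters, scalings, an exon length correction, a fit of reads with limma's voom, and leaving out libraries.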

Additional observations from a re-analysis of the deposited data

How the results depend on the processing

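Over 68 single-gene differences (of the members, averaged over lines for FAT1 and FAT2 alone, and of the partner genes in the comparisons where they are named as called), 1470 of 1587 alternative values kept their sign and their side of the threshold, 61 newly passed, 18 no longer passed and 38 changed sign. The 6 members that differed between control lines passed in 21 of 21 alternatives each. In KYSE150, FAT1 passed in 5 of 25 alternatives (adjusted p 0.000105 to 0.332) and FAT2 in 3 of 25 (0.000508 to 0.590). The planned count tests on edgeR were not run, because the deposited unit is RPKM. Limma's voom on the recovered reads, chosen after seeing the data, stood in, and of all genes called 128 in KYSE150, 5 in KYSE510, 129 averaged over lines and 0 for the difference between lines.

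The replicate block moved the counts of called genes from 89 to 1194 in KYSE150, from 7 to 20 in KYSE510 and from 96 to 488 averaged over lines, and the members called from 0 to 2 in KYSE150 and to 2 averaged. It changed no other call of a member. With the length correction and the replicate block these were 916, 31 and 486 genes, and 2 and 2 members. With voom and the block they were 3381, 397 and 1295 genes, with 1353 for the difference between lines, and 5, 0 and 2 members, with 1 for the difference (FAT1). Of all genes in KYSE150, 67 were called higher and 22 lower, but 54 and 62 with libraries centred on their median and 77 and 77 (154 genes) after quantile normalization, which gave 11 genes in KYSE510. The 6 libraries of a line alone gave 7 genes in KYSE150 and 0 in KYSE510. For all genes, a pseudocount of 0.1 gave 3 and no filter 44 in KYSE510, and no filter gave 10 for the difference. Leaving out single libraries gave 15 to 1287 genes in KYSE150 (1287 without control replicate 3), 2 to 7 in KYSE510, 43 to 140 averaged and 0 to 4 for the difference. The members called were then 0 to 1 in KYSE150 and 0 to 1 averaged.

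Signs changed as follows. Centring gave, in KYSE150, KMT2D -0.040, EP300 -0.0030 and CREBBP -0.10. In KYSE510 it gave CREBBP 0.0052 and AJUBA 0.025, and for the difference between lines KMT2D 0.021 and CREBBP 0.10. Quantile normalization gave KMT2D -0.021 and CREBBP -0.079 in KYSE150, CREBBP 0.0092 and AJUBA 0.032 in KYSE510, and KMT2D 0.0026 and CREBBP 0.088 for the difference. The length correction, with and without the block, gave CREBBP -0.050 in KYSE150 and 0.025 for the difference, and AJUBA 0.020 in KYSE510. Leaving out single libraries gave ranges in KYSE150 of -0.037 to 0.095 for CREBBP, -0.065 to 0.064 for SETD2 and -0.015 to 0.50 for MYC. In KYSE510 they were -0.049 to 0.070 for KMT2C, -0.040 to 0.0035 for CREBBP, -0.037 to 0.083 for SETD2, -0.11 to 0.11 for AJUBA and -0.035 to 0.027 for FBXW7. For the difference they were -0.12 to 0.016 for CREBBP and -0.037 to 0.092 for SETD2. The cause of these moves was not tested. FBXW7 (595 to 825 per library) and KMT2C (640 to 1765) had the fewest reads, and the part of depth in these moves was not tested.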

Other observations

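The partner genes differed between the control lines in both directions: 33 of 98 were higher in KYSE510 and 30 were lower. Together these were 64.3% of the partners, near the 62% of all tested genes. MYC, a substrate of FBXW7, was at 7.47 ± 2.58 RPKM in KYSE150 controls and 67.5 ± 11.7 in KYSE510 controls (SD, n = 3 each), 9.03-fold higher, with a log2 difference of 3.14 (limma adjusted p = 1.47e-06). FAT4, another cadherin of the FAT family, was at 2.13 ± 0.414 against 0.0685 ± 0.0158 RPKM, a log2 difference of -2.20 (limma adjusted p = 1.39e-07), and so ran opposite to FAT1. The added 0.5 shrinks the log2 difference of such low genes, and the means of FAT4 differed 31.1-fold. KDM4C, a demethylase that acts on lysine 36 of histone H3, was at 7.09 ± 0.375 against 1.09 ± 0.0996 RPKM (log2 -2.25, limma adjusted p = 5.48e-09). KAT2B, an acetyltransferase, was at 1.60 ± 0.0270 against 0.0760 ± 0.00707 RPKM (log2 -1.86, limma adjusted p = 6.56e-08), a 21.0-fold difference of the means. None of these 4 genes passed the test with silencing in either line without the replicate block.

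Of the remaining largest differences by list, CXXC1 (-1.45), BAP1 (-1.18), FBLIM1 (-0.93), USP28 (-0.87) and AURKA (-0.64) were lower in KYSE510 on the log2 scale. DNMT3A (1.28), TEAD3 (0.98), ASH1L (0.79), ASH2L (0.76), SKP1 (0.68) and KAT2A (0.43) were higher. All passed with limma, and AURKA lost its call without KYSE510 control replicate 3 (-0.42, limma adjusted p = 0.0628).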
